A study of Mus musculus with 2 samples.

Results

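The insulin-like growth factor binding proteins (IGFBPs) are secreted proteins that carry the insulin-like growth factors IGF-I and IGF-II. The 7 mouse genes that encode them, Igfbp1 to Igfbp7, were taken by symbol from liver mRNA sequencing, where each had 1 of the 53342 rows. They were chosen by family name, and the family was selected on the iFIRKO to control fold changes of Igfbp1 and Igfbp2 in these libraries, so the values of the family are given as a description. The study examined the liver after acute loss of adipocytes, in 1 control library and 1 iFIRKO library. iFIRKO mice, labelled Adipoq-CreERT2; Insr flox/flox, lose the insulin receptor in adipocytes when tamoxifen activates a Cre recombinase driven by the adiponectin promoter, so hepatocytes are not the targeted cells. The control library is labelled WT, whereas the methods describe the control animals as IR flox/flox mice, that is, with floxed Insr and no Cre. All mice were males, and 7 weeks is their age at injection. Tamoxifen (100 mg/kg, 5 daily injections) was given to both groups, and livers were collected 3 days after the final dose. Whether a library came from 1 liver or a pool is not given in the sources used here. There were no replicates, so no test of genotype could be made, and every difference is between 2 libraries.

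Most circulating IGF is bound to IGFBPs, which lengthen its life in blood and control its access to the IGF-I receptor. Hepatocytes secrete IGFBP-1, whose gene is repressed by insulin and activated by FOXO1, and IGFBP-2, whose hepatic mRNA is known to respond to feeding state and leptin. IGFBP-3, the main carrier in adult blood, is made in liver mostly by non-parenchymal cells, and it forms a ternary complex with IGF and the acid-labile subunit encoded by Igfals. IGFBP-4 is freed of IGF by the protease PAPP-A, IGFBP-6 prefers IGF-II, and IGFBP-7 binds IGF weakly.

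Igfbp2 and Igfbp1 mRNAs were 4.53-fold and 2.66-fold lower in the iFIRKO liver, while the other 5 family members stayed within 1.5-fold of the control library. Levels are normalized reads, the authors' log2 values returned to the linear scale. Fold changes are log2 of iFIRKO over control after 4.18 normalized reads (0.1 CPM, CPM being reads per 1000000 reads at the mean depth of the libraries) were added to each. A fold of 1.5 (0.58 on the log2 scale), the limit of the study, was the threshold, and genes were compared where 1 or both libraries reached 41.8 normalized reads, a CPM of 1. All 7 members passed this minimum. Of them 2 were past the threshold downwards and 0 upwards, whereas 7.28% of all 13400 genes compared were past it downwards and 4.46% upwards; nothing is read from these counts, since the family was chosen with this contrast in view. Of the members past the threshold Igfbp1 lay nearest to it, at -1.41, and of those not past it Igfbp6 did, at -0.43. The median log2 fold change was -0.19 over the 7 members and 0.01 over all genes compared, and 6 members were below 0 and 1 above. Of all genes compared, 48.7% were below 0, and nothing is read from the member count here either. Intervals beside the values are exact 95% intervals from the estimated number of read pairs, and they cover counting error only. In a bulk liver library, fewer cells of a type and less mRNA per cell cannot be told apart.

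**Figure D1:**
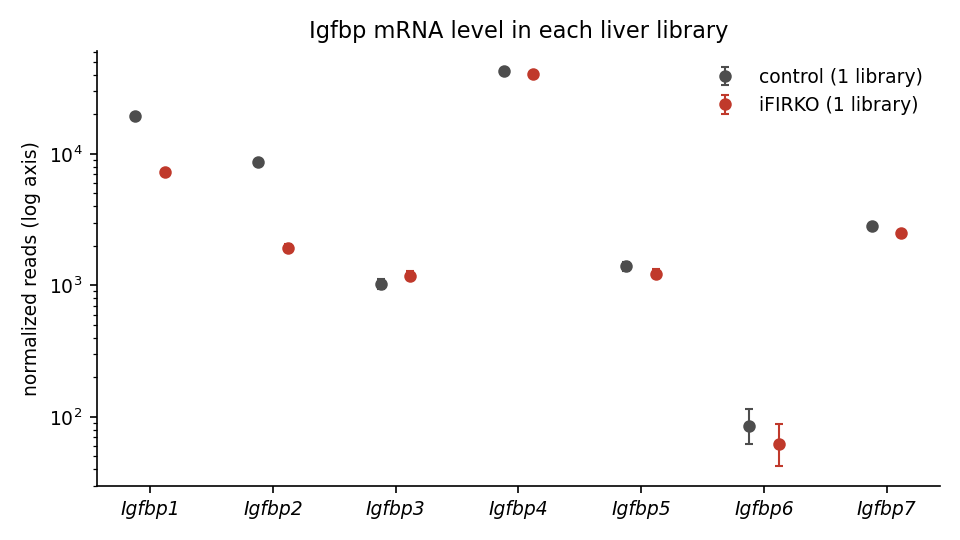
Level of each Igfbp mRNA in the control and the iFIRKO liver library, in normalized reads on a log axis, with bars for the exact 95% counting interval of each library. Igfbp1 and Igfbp2 drop from 19284 to 7234 and from 8746 to 1928 normalized reads, and the points of the other 5 genes lie close together.

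Igfbp2 (ENSMUSG00000039323.18) lies on chromosome 1 at 72824503 to 72852474 of GRCm38, on the forward strand, with 4 exons. Its level was 8746 normalized reads in control and 1928 in iFIRKO liver, from 4402 and 958 estimated read pairs. The iFIRKO level was therefore 22.1% of the control level, a log2 fold change of -2.18 (95% interval -2.28 to -2.08). Of the 8380 genes with a CPM of 10 or more, 1 had a lower log2 fold change than Igfbp2. Among the 1075 genes with a mean of at least as many normalized reads, Igfbp2 had the lowest one. Over all 13400 genes compared it ranked number 12 from the bottom. The family was selected partly on this fold change, so the ranks of Igfbp2 are a description only.

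Igfbp1 (ENSMUSG00000020429.7) lies on chromosome 11 at 7197782 to 7202546, on the forward strand, also with 4 exons. It was measured at 19284 normalized reads in control and 7234 in iFIRKO liver, from 9705 and 3594 read pairs. The log2 fold change was -1.41 (-1.47 to -1.36), which left 37.5% of the control level. Igfbp1 ranked number 15 from the bottom among the 8380 genes at a CPM of 10 or more. Among the 395 genes with a mean at least as high as its own, it had the lowest log2 fold change. Its rank over all 13400 genes compared was number 76 from the bottom. As for Igfbp2, the family was selected on this value, and nothing further is read from these ranks.

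**Figure D2:**
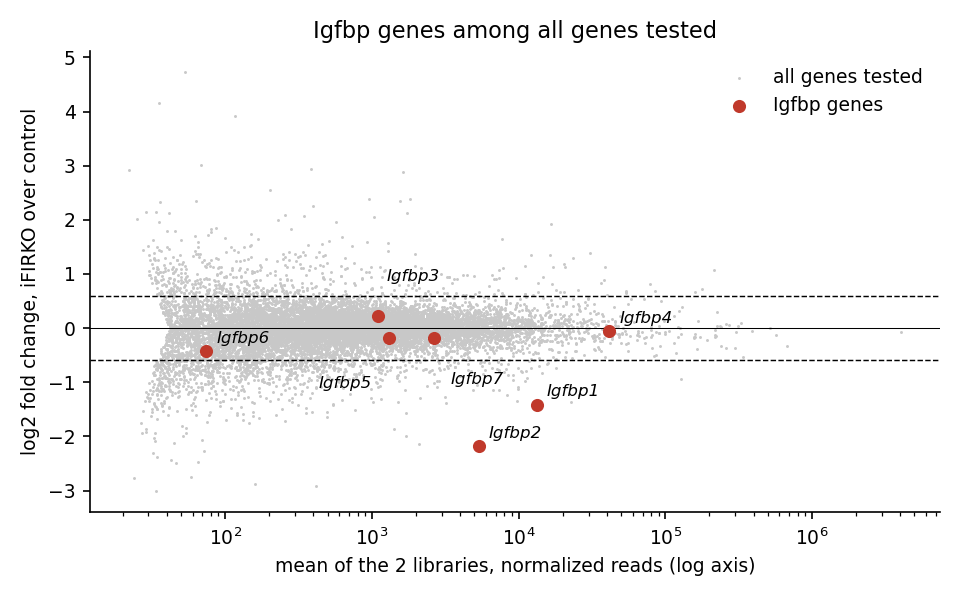
Log2 fold change of iFIRKO over control against the mean level of the 2 libraries (normalized reads, log axis) for the 13400 genes compared, in grey, with the 7 Igfbp genes in red and the 1.5-fold threshold as dashed lines. Igfbp1 and Igfbp2 lie below the cloud of genes at their level, at -1.41 and -2.18, and the other 5 lie inside it between the dashed lines.

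The upstream sequences of the 2 lower genes are shown beside that of Igfbp4, the member with the smallest fold change, to let the 3 starts be compared. They are RefSeq promoter windows on GRCm38.p6, printed 5′ to 3′ on the forward strand, which is the coding strand of these genes, and end at or just before the annotated start. Capitals mark matches to the searched letters.
Igfbp1, chr11:7197637-7197781: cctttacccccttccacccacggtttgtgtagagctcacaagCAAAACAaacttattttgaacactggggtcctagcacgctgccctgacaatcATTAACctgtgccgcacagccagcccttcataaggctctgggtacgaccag
Igfbp2, chr1:72824330-72824479: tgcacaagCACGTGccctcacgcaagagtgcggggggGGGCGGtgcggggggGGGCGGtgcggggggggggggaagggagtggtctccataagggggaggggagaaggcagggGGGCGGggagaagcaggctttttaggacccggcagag
Igfbp4, chr11:99041094-99041243: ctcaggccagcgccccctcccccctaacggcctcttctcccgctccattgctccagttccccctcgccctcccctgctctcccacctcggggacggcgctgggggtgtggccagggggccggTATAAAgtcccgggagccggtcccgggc
The letters CAAAACA, the core of the insulin response element to which FOXO1 binds, stood in the Igfbp1 window 108 to 102 bases upstream of the start. They were found on either strand in 5.56% of all 32851 windows of 250 bases, and in 1 of the 8 windows of the family, in which Igfbp2 has 2 annotated starts. ATTAAC, the reverse complement of the HNF1 core GTTAAT, followed 56 to 51 bases upstream of Igfbp1. GTTAAT is held on either strand by 6.43% of all windows. Igfbp2 had neither of these. Its first start had 3 GC boxes (GGGCGG, in 32.7% of windows) from 113 to 32 bases upstream and an E box (CACGTG, 6.02%) 142 to 137 bases upstream. AGAACA, the reverse complement of the glucocorticoid response core TGTTCT (16.1%), lay 206 to 201 bases upstream, outside the printed stretch.

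Igfbp4 had a TATA box (TATAAA, in 12.4% of windows) 28 to 23 bases upstream. Igfbp6 had the reverse complement of these letters, TTTATA, 148 to 143 bases upstream of its RefSeq start. That Igfbp6 window ends at 102144185, well before the gene start at 102144362 given with its position below. The Igfbp7 window held 4 GC boxes. The windows of Igfbp3 and Igfbp5 held none of the 8 motifs searched, and no member window held the forkhead core GTAAACA (3.17% of windows) or the PPAR core AGGTCA (14.0%). Guanine and cytosine made up 53.2% of the Igfbp1 window, and 67.2% and 56.4% of those of the first and the second Igfbp2 start. Their share was 73.2% for Igfbp3, 69.2% for Igfbp4, 58.8% for Igfbp5, 49.6% for Igfbp6 and 74% for Igfbp7, beside a median of 52.4% over all windows. Both strands were searched, and the listed matches do not overlap each other. A match describes letters in the window and not a bound site.

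Igfbp3 (ENSMUSG00000020427.11), on the reverse strand of chromosome 11 at 7206086 to 7213923 with 5 exons, was the only member with a positive log2 fold change. Its level was 1017 normalized reads in control and 1183 in iFIRKO liver, a log2 fold change of 0.22 (0.05 to 0.39). The iFIRKO level was thus 1.16-fold the control level, not past the threshold but beyond counting error. Igfals, its partner in the ternary complex, was at 7437 normalized reads in control and 5688 in iFIRKO liver. The log2 fold change of Igfals was -0.39 (-0.46 to -0.32), also not past the threshold but on the other side of 0.

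Igfbp4 (ENSMUSG00000017493.12) lies on the forward strand of chromosome 11 at 99041244 to 99054392 and has 4 exons. Its level was 42469 normalized reads in control and 40755 in iFIRKO liver. At these levels, from 21373 and 20246 read pairs, the log2 fold change of -0.06 had a narrow interval (-0.09 to -0.03), and the iFIRKO level was 0.960 times the control level. Within the longest-coding Igfbp4 transcript 239 of 3744 words of 31 letters also occur in other genes, and how reads that map to several places were counted is not given in the sources used here. Of the other members, Igfbp1, Igfbp5 and Igfbp6 share 0 such words with any other gene, and Igfbp2 and Igfbp3 share 3 with each other.

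Igfbp5 (ENSMUSG00000026185.8), the most conserved IGFBP and also a ternary complex former, lies on the reverse strand of chromosome 1 at 72857932 to 72874884, with 4 exons. Its level was 1398 normalized reads in control and 1226 in iFIRKO liver, a log2 fold change of -0.19 (-0.35 to -0.03). Igfbp7 (ENSMUSG00000036256.13), expressed in blood vessel endothelium among other cells, lies on the reverse strand of chromosome 5 at 77349240 to 77408041, with 6 exons. It was measured at 2826 normalized reads in control and 2483 in iFIRKO liver, and its log2 fold change was also -0.19 (-0.30 to -0.08). Igfbp5 and Igfbp7 thus differed between the libraries by more than counting error and by less than 1.5-fold. Igfbp6 (ENSMUSG00000023046.6), on the forward strand of chromosome 15 at 102144362 to 102149511 with 4 exons, rested on only 43 and 31 read pairs. Its level was 85.4 normalized reads in control and 62.4 in iFIRKO liver, and the interval of its log2 fold change of -0.43 (-1.17 to 0.25) reached from past the threshold to above 0. A difference for Igfbp6 was not detectable at this depth.

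Igfbp1 and Igfbp3, and likewise Igfbp2 and Igfbp5, are neighbours in the genome with their 3′ ends facing each other. Igfbp1 and Igfbp3 are separated by 3539 bp on chromosome 11, and Igfbp2 and Igfbp5 by 5457 bp on chromosome 1. In each couple, the forward gene was past the threshold (-1.41 and -2.18) and the reverse gene was not (0.22 and -0.19). The family was selected on the fold changes of the forward genes, Igfbp1 and Igfbp2, so nothing is read from this arrangement. On the other side of Igfbp2, Rpl37a, a ribosomal protein gene 110689 bp away, had a log2 fold change of -0.32. Beyond Igfbp3 the next coding gene, Tns3, lies as far as 1217728 bp away and had -0.30. Of the genes next to the other members, Tns4, which encodes a tensin and lies 11285 bp from Igfbp4, was past the threshold at -1.49, from 52.7 normalized reads to 16.1. Top2a (0.16), Spryd3 (0.07), Soat2 (0.07) and Noa1 (-0.05) were not. The 3′ ends of Igfbp7 and Polr2b, an RNA polymerase II subunit gene on the opposite strand, overlap, and 47 of the 1170 words of 31 letters in Igfbp7 are shared with it. Polr2b had a log2 fold change of 0.08. The library kit keeps strand, but the counting is not stated to use it, so reads from the overlap of Igfbp7 and Polr2b may have been given to either gene.

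Levels of different members were compared per kb of exon in the transcript with the longest coding sequence. In the control library Igfbp1 was highest at 12646 normalized reads per kb, followed by Igfbp4 at 11086 and Igfbp2 at 6692. Igfbp7 came next at 2355 per kb, and Igfbp3 (420.2), Igfbp5 (232.8) and Igfbp6 (76.8) followed. In the iFIRKO library Igfbp4 was highest at 10638 normalized reads per kb, ahead of Igfbp1 at 4744, and Igfbp7 at 2069 stood above Igfbp2 at 1475. Igfbp3 (488.7), Igfbp5 (204.2) and Igfbp6 (56.1) kept the last places. The order therefore differed between the libraries at Igfbp1 and Igfbp4 and at Igfbp2 and Igfbp7, and no neighbours in either order had counting intervals that met. The top places of the control library depended on the length used: per kb of coding sequence Igfbp4 made up 58.7% of the family sum there and Igfbp1 24.9%.

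Summed over the 7 genes, the family level was 33508 normalized reads per kb in control and 19675 in iFIRKO liver, or 58.7% of control. Without Igfbp4 the sums were 22422 and 9036 per kb, or 40.3% of control. Most of the difference between the family sums lay in Igfbp1 (12646 and 4744 per kb) and Igfbp2 (6692 and 1475 per kb). The family was selected on the fold changes of these genes, and the other members stayed within 1.5-fold. The family sum depended on the length used, with 73.8% of control per kb of coding sequence and 72.4% without a length. Per kb of exon, Igfbp1 made up 37.7% of the family sum in control and 24.1% in iFIRKO liver, and Igfbp2 made up 19.97% and 7.50%. The share of Igfbp4 was 33.1% in control and 54.1% in iFIRKO liver, although its own level hardly differed. Igfbp7 held 7.03% and 10.5% of the sum, Igfbp3 1.25% and 2.48%, Igfbp5 0.695% and 1.04%, and Igfbp6 0.229% and 0.285%. These shares are of mRNA and say nothing of the secreted proteins, which were not analysed here.

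**Figure D3:**
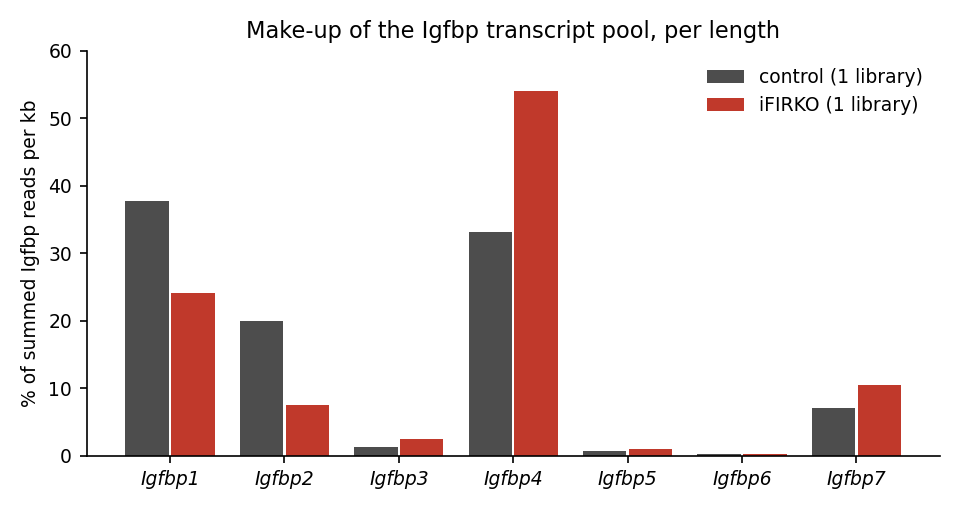
Share of each Igfbp gene in the summed family level (normalized reads per kb of exon, percent) in the control and iFIRKO libraries, without error bars because each bar is 1 library. Igfbp1 and Igfbp2 take 37.7% and 19.97% of the control sum and 24.1% and 7.50% of the iFIRKO sum, and Igfbp4 takes 33.1% and 54.1%.

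Of the 7 genes of the IGF ligands, receptors and ternary complex, 5 passed the minimum and 0 of them were past the threshold in either direction, with a median log2 fold change of -0.08. For this and the following lists, the shares over all 13400 genes compared are 7.28% past the threshold downwards and 4.46% upwards. The lists were chosen with earlier results of these data known, so nothing is read from their counts. Igf1, the ligand that liver supplies to blood, was at 22703 normalized reads in control and 21475 in iFIRKO liver, a log2 fold change of -0.08 (-0.12 to -0.04). Igf2, which is expressed in fetal liver, was at 7.9 and 1.5 normalized reads, too few for a fold change. The log2 fold change was 0.02 for Igf1r, the signalling receptor for IGF-I, and 0.13 for Igf2r, which clears IGF-II. Insr, the gene deleted in adipocytes, was at 4246 normalized reads in control liver and 3692 in iFIRKO liver (-0.20, -0.29 to -0.11); as the liver is not the targeted tissue, this value does not check the knockout. Insrr, a receptor of the same family, was at 0 and 2.0 normalized reads.

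Igfbp1 is a textbook target of FOXO1 in hepatocytes, and 12 genes of FOXO factors and liver genes that insulin suppresses were described beside it. Of the 11 that passed the minimum, 0 were past the threshold upwards and 1 downwards, with a median of -0.22. The lower gene was Irs2, an adaptor of the insulin receptor, at 3005 normalized reads in control and 1232 in iFIRKO liver (-1.28, -1.42 to -1.15). The gluconeogenic genes Pck1 and G6pc had log2 fold changes of -0.46 and 0.35, and Tat, a tyrosine aminotransferase gene, had -0.04. Foxo1 itself was at 2244 and 2363 normalized reads, a log2 fold change of 0.07. Of 8 genes listed by hand as induced by insulin, 3 were past the threshold upwards, namely the lipogenic genes Scd1 (0.72), Fasn (0.69) and Acaca (0.64). In the same list 1 was past it downwards, and the median of -0.05 depends on which genes were listed. That 1 was Socs2, a cytokine signalling suppressor that growth hormone induces, at 741.2 and 250.5 normalized reads (-1.55).

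Growth hormone acts on the liver through STAT5, and leptin through its receptor and STAT3. Of 11 growth hormone and STAT5 genes, 2 were past the threshold upwards (Cyp2d9 at 1.12 and Mup20 at 0.89) and 2 downwards (Socs2 at -1.55 and Cish at -1.01), with a median of -0.26. Cish, like Socs2 a feedback inhibitor of cytokine receptors, was at 1461 normalized reads in control and 723 in iFIRKO liver. Of the 5 genes of the leptin receptor and its response, 0 were past the threshold, all were below 0 and the median was -0.12. Lepr had a log2 fold change of -0.38 whose interval included 0 (-0.97 to 0.19), and Stat3 had -0.10. Igf1 and Igfals stand in both the IGF and the growth hormone list, and Socs2 in both the insulin-induced and the growth hormone list.

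**Figure D4:**
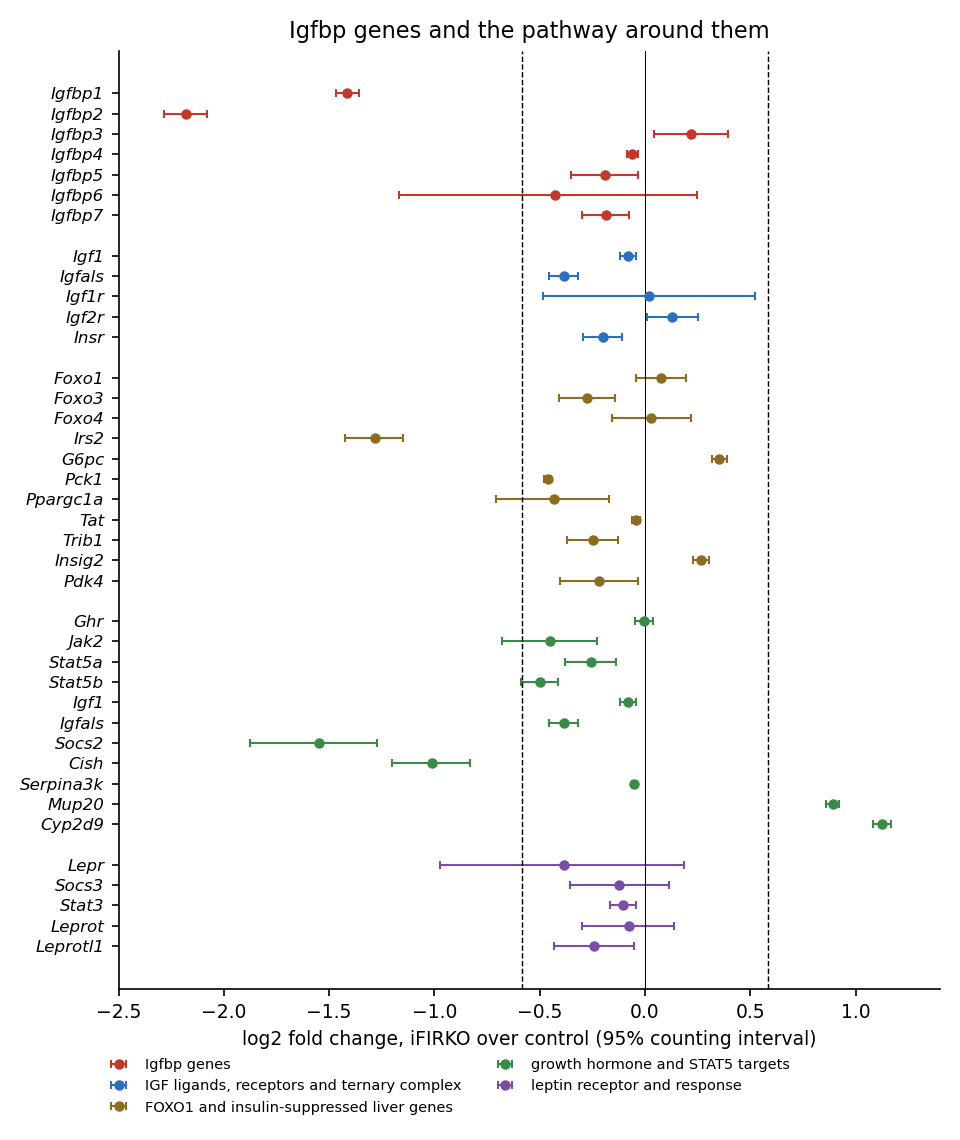
Log2 fold change, iFIRKO over control, with the 95% counting interval for the 7 Igfbp genes and the genes above the minimum of 4 lists around them; dashed lines mark a fold of 1.5. Igfbp2 (-2.18), Socs2 (-1.55), Igfbp1 (-1.41), Irs2 (-1.28) and Cish (-1.01) lie left of the dashed lines, and Mup20 (0.89) and Cyp2d9 (1.12) lie right of them.

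IGFBPs release IGF when proteases cut them. Of 26 genes of such proteases and their inhibitors, 20 passed the minimum, of which 1 was past the threshold upwards and 4 downwards, with a median of -0.07. The higher gene was Htra3, a secreted serine protease, at 47.7 and 110.3 normalized reads (1.14, 0.50 to 1.97). The lower genes were the plasminogen activator Plau (-0.89, -1.65 to -0.23) and Htra4 (-0.66, -1.33 to -0.07), and, with intervals that included 0, the activator Plat (-0.66, -1.68 to 0.27) and the gelatinase Mmp9 (-0.70, -1.80 to 0.20). Plat (52.6 and 31.8 normalized reads) and Mmp9 (51.7 and 30.2) reached the minimum in the control library only. Plg, which encodes plasminogen, had a log2 fold change of -0.33 and Serpinf2, its plasmin inhibitor, -0.40, and neither was past the threshold. Pappa, whose product cleaves IGFBP-4, was at 4.0 and 6.0 normalized reads, and Pappa2 was at 0 in both libraries.

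Other genes whose products carry an IGFBP-type domain were also described. Of 13 such genes, 9 passed the minimum, with 1 past the threshold upwards (Htra3), 3 downwards and a median of -0.16. The 3 were Htra4 (-0.66), the endothelial proteoglycan gene Esm1 (-0.62) and Wisp2 (-0.61). Cyr61 (-0.20) and Ctgf (0.05), matricellular genes, and Crim1 (-0.01) were not past it. The Igf2bp genes encode RNA-binding proteins that share only part of the name; of the 3, only Igf2bp2 passed the minimum, at 69.5 and 112.6 normalized reads (0.66, 0.06 to 1.35).

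The defining markers of the cells that could supply the Igfbp mRNAs were compared as whole lists. All 8 hepatocyte markers passed the minimum, with Alb, which encodes albumin, at 4167150 and 3944160 normalized reads in control and iFIRKO liver, so the tissue label was borne out by its defining markers. Their sum was 5258440 normalized reads in control and 4937340 in iFIRKO liver, a log2 difference of -0.09, and 1 of them (Apoa1, -0.94) was past the threshold downwards. Alb made up most of this sum. The median of the hepatocyte markers was -0.06, and single markers ran from -0.94 to 0.29. Among 10 endothelial markers, all were below 0 and 3 were past the threshold downwards (Kdr at -0.79, Pecam1 at -0.70 and Fcgr2b at -0.69), with a log2 difference of sums of -0.45. For Igfbp3 and Igfbp7, which non-parenchymal cells can make, the log2 fold changes of 0.22 and -0.19 stood beside that value, and its part in them was not tested. Among 10 stellate cell and fibroblast markers 0 were past the threshold, and their sums differed by 0.11 on the log2 scale.

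Blood and tissue leukocyte markers differed more between the libraries. Of 8 Kupffer cell and macrophage markers 5 were past the threshold downwards, the sums being 33879 and 21943 normalized reads (log2 difference -0.63), with Cd5l at -0.79 and C1qa at -0.72. Of 10 lymphocyte and neutrophil markers 4 passed the minimum and all 4 were past the threshold downwards, with sums over the 10 of 721.8 and 241.6 normalized reads (-1.58). Of these 4, Cd79a (113.4 and 17.1 normalized reads) and S100a8 (117.2 and 32.2) reached the minimum only in control, where they were high, so nothing is read from this count. Below the minimum, Cd3e, Cd3g and Klrb1c were also past the threshold downwards, Ms4a1 and Nkg7 were not, and Ly6g had too few reads for a fold change. Of all genes compared, 7.28% were past the threshold downwards. Of the markers of cholangiocytes, mesothelium and smooth muscle, 0 were past the threshold, and their medians were -0.23, -0.09 and 0.28. The part of these differences in the levels of Igfbp1 and Igfbp2 was not tested.

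**Figure D5:**
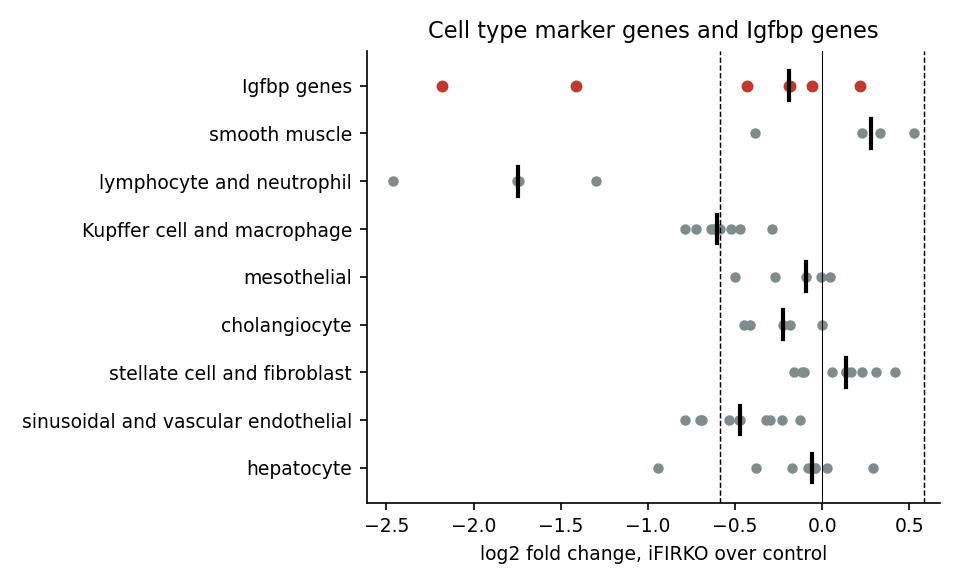
Log2 fold change, iFIRKO over control, of the 7 Igfbp genes (red) and of the cell type marker genes above the minimum (grey), with a bar at each list's median and dashed lines at a fold of 1.5. The hepatocyte median is -0.06 and the endothelial median -0.47, the Kupffer cell median is -0.60 and the lymphocyte and neutrophil median -1.74, and Igfbp1 and Igfbp2 lie at -1.41 and -2.18.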

How the data were processed

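Total RNA of liver was made into poly(A) libraries with a stranded TruSeq mRNA kit and sequenced on a NovaSeq instrument, 1 library per genotype. The authors deposited a normalized read count per gene symbol, as a file header names it, on a log2 scale, as the values show. The build is mm10 per the submitters' processing notes, and the aligner, counter and normalization are not given in the sources used here. Both files held 53342 rows (53241 distinct symbols).

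Values were returned to the linear scale, with 0 kept as 0. The commonest low value was taken as 1 read pair, which gave estimated depths of 42278712 reads in the control and 41311107 in the iFIRKO library. Of values under 40 reads, 46.4% and 46.6% were then whole pairs within 0.02 pair, so pair numbers are estimates. A named gene with 3 read pairs or fewer in a library was given no fold change, but list medians and gene counts without a minimum include such genes through the pseudocount. Intervals of ratios are exact Clopper-Pearson intervals at 95%. Calculations were tested on simulated data made of whole read pairs only, so that test cannot check the pair estimate. They ran in Python 3.11.15 with scipy 1.17.1, numpy 2.4.6, matplotlib 3.10.9 and pandas 2.3.3.

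Positions and lengths are from GENCODE M21 (GRCm38), and promoters from RefSeq (GRCm38.p6). Protein sequences were not analysed here. The 7 members and the 16 lists (140 genes), written by hand, were chosen with earlier results of these data known. Names came from the members, the IGF list, the genes next to each member and, in each other list, the 3 highest by level and the 3 with the greatest absolute fold change. Acaca, Plat, Htra4 among the proteases, Wisp2, Foxo1, Pappa, Pappa2, Igf2bp1 and the lymphocyte and neutrophil markers below the minimum were named after their values were seen. Alternatives were other scalings, pseudocounts, minimums, a fold of 2 and other gene lengths.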

Additional observations from a re-analysis of the deposited data

How the results depend on the processing

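With 1 library per genotype, the differences cannot be told apart from those between any 2 livers, and the depth limits Igfbp6 most. No paired analysis was possible because neither group held replicates. All 69 fold changes of the members under other scalings, pseudocounts and minimums lay within their counting intervals: Igfbp1 from -1.43 to -1.40, Igfbp2 from -2.19 to -2.16 and Igfbp3 from 0.20 to 0.23. A minimum, or summing rows of the same symbol, cannot alter the fold change of a member, so those settings repeat the main value. Only the scalings and pseudocounts could move it, and nothing is read from the number 69. Igfbp6 ran from -0.45 to -0.29 and had no value at a minimum CPM of 5. Under all 11 settings, a fold of 2 included, 2 members were lower and 0 higher. The scalings tried moved all log2 values by -0.012 to 0.015. Over all genes the counts of lower and higher genes were 267 and 209 at a fold of 2, 576 and 371 with 41.8 normalized reads as the pseudocount, 2620 and 1960 without a minimum and 440 and 288 at a minimum of 209 normalized reads.

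The shares depended on the gene length used. Per coding length, without length and per merged annotated exons, Igfbp1 made up 24.9%, 25.4% and 42.2% of the control sum and 12.7%, 13.2% and 26.8% of the iFIRKO sum. In the same order Igfbp2 made up 10.1%, 11.5% and 15.8%, then 3.01%, 3.51% and 5.89%, and Igfbp4 58.7%, 56.0% and 32.1%, then 76.4%, 74.3% and 52.1%. Merged exons and equal library sums were chosen after seeing the data. Of 159 list medians under alternatives, 156 lay within the median of the counting intervals of their list. Without a minimum, the lymphocyte and neutrophil median was -1.05, and the Igf2bp median reversed from 0.66 to -0.56, which is the value that the pseudocount alone gives Igf2bp1, a gene at 2.0 and 0 normalized reads. The hepatocyte median was -0.05 with equal library sums.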
